A study of Mus musculus with 3 samples.

Results

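The genes described here encode the nuclear subunits of the mitochondrial respiratory chain and of ATP synthase. They were chosen by gene symbol alone: every probe whose gene symbol begins with Nduf followed by a, b, c, s or v, is Sdha, Sdhb, Sdhc or Sdhd, or begins with Uqcr, with Cox4 to Cox8 or with Atp5. The rule took 93 genes read by 124 probes, of 20577 named genes and 39429 probes on the array. Of these genes 85 encode subunits and 8, which share the Nduf prefix, encode assembly factors of complex I. The symbol rule matched 115 genes of the RefSeq table, and the other 22, of which 3 are protein-coding, had no probe and were not measured here. RNA of 3 kinds of mouse cell, all labelled female, was hybridised to 1 one-colour array each. iHep were labelled hepatocyte-like cells: primary fibroblasts of spleens remodelled with SiO2, given the lentivirus LV-3TF and cultured for 14 days. PH were primary hepatocytes taken fresh from mice as the positive control. MF, the control, were the same kind of spleen fibroblasts, given the control lentivirus LV-NC and cultured for the same 14 days. Per the design text each array carried a pool of 5 samples. The labels do not name the factors, the strain or the age of the mice. With 1 array per group no test, no p-value and no spread between samples can be given, so "higher" and "lower" describe these 3 arrays only.

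The respiratory chain passes electrons from NADH (complex I) and succinate (complex II) through ubiquinone to complex III, and from there through cytochrome c to complex IV, which reduces oxygen. Complexes I, III and IV pump protons across the inner mitochondrial membrane, and complex V, the ATP synthase, uses the returning protons to make ATP. Hepatocytes are rich in mitochondria, and their chain serves urea synthesis, gluconeogenesis and fatty acid oxidation. Several subunits of complex IV exist in a common form and in a form restricted to certain tissues or conditions, each from its own gene. A few subunits are encoded in mitochondrial DNA; these were not analysed here.

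Each level below is the log2 signal of a probe relative to the 75th percentile of its array, so that level 0 is that percentile, and a log2 difference of 1 is 2-fold. The percentile signal was 3751.5 on the iHep array, 2080.9 on PH and 544.3 on MF. The number of named genes well above background was 16374 in iHep, 17380 in PH and 15008 in MF, and 90 of the 93 members were so on all 3 arrays. The technical SD of a log2 difference, from replicate spots, was 0.14 in iHep over MF, 0.15 in PH over MF and 0.15 in iHep over PH, which leaves out all variation between cultures and animals. The MF array had a scan of its own and the other 2 arrays had another, so that scan and group cannot be told apart wherever MF is compared. Summed levels of hepatocyte and fibroblast markers bore out PH and MF but not the name of iHep. Albumin (Alb) stood at -4.75 in iHep, 6.67 in PH and -5.20 in MF, and the log2 of the summed level of 6 hepatocyte markers was -1.53 in iHep, 8.71 in PH and -1.89 in MF. For 9 fibroblast markers that sum was 5.51 in iHep, 5.49 in PH and 9.06 in MF, with medians of -1.15, 0.72 and 5.55. All but Dcn and Lum were highest in MF. Dcn stood at 3.76 in PH and 2.71 in MF, and Lum at -0.37 in PH and -5.16 in MF. In iHep the list was split. Thy1, Postn and Dcn were low there, at -6.15, -6.21 and -5.45, and Lum was not well above background. Col1a1, Pdgfrb, Col1a2 and Pdgfra stood at 4.62, 3.68, 2.45 and 1.22 in iHep, higher than in PH and lower than in MF. Col3a1 stood at -1.15 in iHep, below both other arrays. Markers of other cells stood on the PH and MF arrays too: 7 macrophage markers summed to -1.91 in iHep, 6.53 in PH and 6.34 in MF, and 5 pancreas acinar markers to -0.81, 8.04 and -1.55 on the same 3 arrays. Endothelial (4 markers) and erythroid (3 markers) sums were also highest in PH, at 5.04 and 4.21, against -0.74 and -4.62 in iHep and -0.55 and -4.61 in MF. The part of these other cells in the differences below was not tested, and in pooled RNA a smaller number of cells of a type and less RNA per cell cannot be told apart.

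On this scale most members read highest in PH and lowest in iHep. PH was the highest of the 3 arrays for 65 of the 91 members above background there, and iHep was the lowest for 54. For PH over MF 20 of 91 members were at least 2-fold higher and 4 lower, against 30.9% of all genes higher and 25.4% lower. The median log2 difference was 0.43, against -0.18 for all genes. Each median of all genes, here and below, is over genes above background on both arrays. The shares also count genes above background on only 1 of the 2. Over that wider set the medians were 0.12 in PH over MF, -0.30 in iHep over PH and 0.09 in iHep over MF. For iHep over PH 2 of 91 were higher and 23 lower, against 23.2% of all genes higher and 36% lower, with a median of -0.77 against -0.15. For iHep over MF 5 of 90 were higher and 13 lower, against 19.8% and 23.5% of all genes, with a median of -0.24 against -0.02. The share of members past 2-fold was thus below that of all genes in every comparison and direction, while the members leaned one way: 71 of 91 were above 0 in PH over MF, 79 of 91 below 0 in iHep over PH and 57 of 90 below 0 in iHep over MF. The comparisons share arrays, so they are not independent of each other. A total of 43 members passed 2-fold in at least 1 comparison and 50 in none. The share of all genes past 2-fold in at least 1 comparison is not given here, so this count cannot be set against it. The counts past 2-fold depended on the scaling. With quantile normalization, which gives every array the same distribution of values, PH over MF had 11 higher and 4 lower. Of all genes 4196 of 17787 were then higher and 5519 lower. In iHep over PH 3 members were higher and 8 lower, against 5596 and 4603 of 18005 genes, while the median of all genes turned to 0.33. In the authors' processed values, which hold 68 of these members, iHep over PH had 4 higher and 6 lower. Of all genes there, 4042 of 13070 were higher and 3216 lower. The lean of iHep over MF changed too, as described further on.

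**Figure D1:**
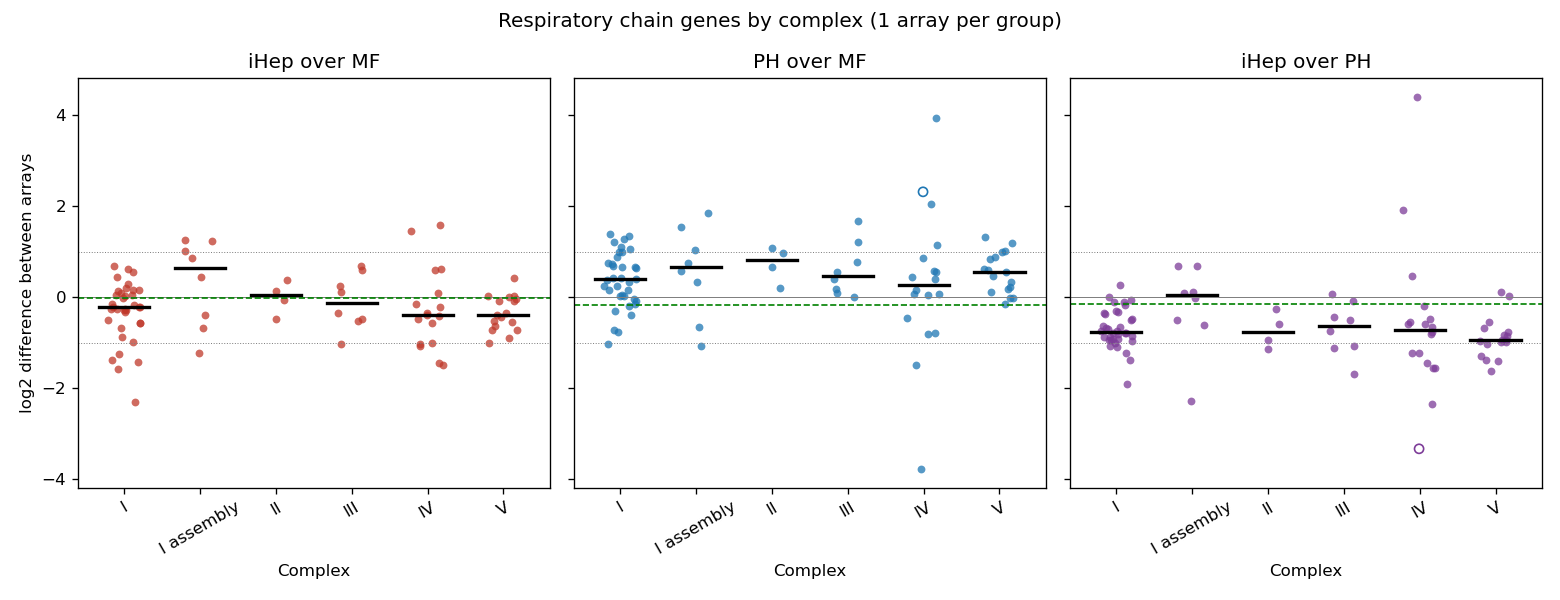
Log2 difference of each member (dots, 1 per gene) by complex in the 3 comparisons; black bars are medians, the green dashed line is the median of all genes above background on both arrays, dotted lines mark 2-fold, and open circles are lower bounds in size for Cox8b. The medians of complexes I to V all lie above the line of all genes in PH over MF and below it in iHep over PH, while the assembly factors of complex I lie highest in iHep over MF, at 0.65.

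Complex I takes electrons from NADH. Its 7 nuclear-encoded core subunits, which carry the redox centres, had median differences of 0.04 in iHep over MF, 0.38 in PH over MF and -0.65 in iHep over PH. Ndufv1, which binds the flavin that accepts electrons from NADH, stood at 4.25 in iHep, 5.04 in PH and 3.69 in MF. It was 2.54-fold higher in PH than MF and lay within 2-fold in iHep over MF (0.55) and iHep over PH (-0.79). Ndufv2, its iron-sulfur partner, stood at 3.68 in iHep, 4.34 in PH and 3.07 in MF and was 2.42-fold higher in PH than MF. These 2 subunits form the tip that meets NADH, and both ran in the order PH, iHep, MF. Ndufs1, the largest core subunit and a carrier of several iron-sulfur clusters, was nearly level, at 2.07 in iHep, 2.18 in PH and 2.03 in MF. Ndufs7, which holds the last iron-sulfur cluster of the complex, stood at 2.82 in iHep, 3.47 in PH and 3.09 in MF, and Ndufs3, a subunit of the same arm, at 3.90, 4.84 and 4.15. Ndufs8, another cluster-bearing subunit, was the only core subunit above 0 in iHep over PH, at 0.26, with levels of 0.57 in iHep, 0.31 in PH and 0.28 in MF. Of the core subunits only the pair at the NADH site passed 2-fold, and only in PH over MF. That is 2 of 7 (28.6%), near the 30.9% of all genes higher there.

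The 29 accessory subunits of complex I, which surround the core and hold it together, had medians of -0.22 in iHep over MF, 0.40 in PH over MF and -0.78 in iHep over PH, and 28 of them were below 0 in iHep over PH. In PH over MF 5 (17.2%) passed 2-fold upward and 1 (3.45%) downward, below the 30.9% of all genes higher and 25.4% lower. Ndufb5, of the distal membrane arm, stood at 3.58 in iHep, 4.27 in PH and 2.88 in MF, 2.61-fold higher in PH than MF. Ndufb11, of the same arm, stood at 3.50 in iHep, 4.58 in PH and 3.37 in MF, 2.32-fold higher in PH than MF and 2.12-fold lower in iHep than PH. Its other, dim probe differed by -0.72 in iHep over PH. Ndufb10 stood at 3.92 in iHep, 5.14 in PH and 4.09 in MF, 2.07-fold higher in PH than MF and 2.33-fold lower in iHep than PH. Ndufs6, a zinc-binding subunit added late in assembly, stood at 3.12 in iHep, 4.21 in PH and 3.10 in MF, 2.16-fold higher in PH than MF and 2.14-fold lower in iHep than PH. In Ndufb10, Ndufb11 and Ndufs6 the iHep and MF arrays were close and PH stood apart. Ndufa6, which holds the acyl carrier subunit, was just past the threshold at 2.01-fold higher in PH than MF, with levels of 2.42 in iHep, 3.23 in PH and 2.23 in MF. Ndufb2 lay at the threshold, at 3.48 in iHep, 4.50 in PH and 3.50 in MF: it was counted in iHep over PH (2.02-fold lower) and lay just inside it in PH over MF.

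Of the accessory subunits described next, all were at least 2-fold lower in iHep than MF except Ndufb8, and Ndufa3 and Ndufv3 were also past 2-fold lower in iHep than PH. Ndufa3, a small membrane subunit, had the lowest difference of all members in iHep over MF: it stood at 1.82 in iHep, 3.73 in PH and 4.13 in MF, 4.95-fold lower in iHep than MF and 3.75-fold lower than in PH. Ndufv3, which sits near the NADH site, stood at 2.94 in iHep, 4.33 in PH and 4.38 in MF, 2.71-fold lower in iHep than MF and 2.62-fold lower than in PH. Its second probe differed by -0.92 in iHep over MF and by 0.21 in iHep over PH. Ndufa13, also known as the cell death regulator GRIM-19, stood at 3.83 in iHep, 4.70 in PH and 5.41 in MF, 2.99-fold lower in iHep than MF and within 2-fold in iHep over PH (-0.87). Ndufab1, the mitochondrial acyl carrier protein, which also serves lipoic acid synthesis, stood at -2.08 in iHep, -1.13 in PH and -0.82 in MF, 2.39-fold lower in iHep than MF and within 2-fold in iHep over PH (-0.95). Ndufa11, a membrane arm subunit, was lower on both arrays than in MF, at -2.93 in iHep, -2.57 in PH and -1.55 in MF, or 2.61-fold lower in iHep and 2.04-fold lower in PH. Ndufb8, a membrane arm subunit, was the only accessory subunit not below 0 in iHep over PH, with levels of 2.86 in iHep, 2.85 in PH and 2.42 in MF. No accessory subunit was 2-fold higher in iHep than MF, and those not named here lay within 2-fold throughout.

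The promoter of Ndufa3 is shown because this gene had the lowest difference of iHep over MF. It spans 250 bases before to 50 after the RefSeq start (build GRCm38.p6, chr7:3617123-3617422, plus strand), and capitals mark a TATA-type match (TATAAA) and a YY1-type match (AAGATGGC). The TATA-type match began 166 bases before the start, so its letters are not read as a TATA box, and the YY1-type match 22 bases after it.
Ndufa3: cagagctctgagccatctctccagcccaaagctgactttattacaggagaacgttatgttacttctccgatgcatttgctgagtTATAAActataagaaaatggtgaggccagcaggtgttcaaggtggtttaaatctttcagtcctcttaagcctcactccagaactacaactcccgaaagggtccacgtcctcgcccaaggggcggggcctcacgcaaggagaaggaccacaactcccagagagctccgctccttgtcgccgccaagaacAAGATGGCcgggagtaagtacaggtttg
A total of 4 short motifs were searched on both strands in such 300-base windows: the ETS-type CCGGAAG that GABP binds, the NRF1-type GCATGCGC, the YY1-type AAGATGGC and the TATA-type TATAAA. An ETS-type and a YY1-type match can share the letters AAG. RefSeq windows were at hand for 76 members (81 windows). The ETS-type letters stood in 23.5% of member windows and 8.86% of all 32851 windows, the NRF1-type letters in 14.8% and 2.71%, the YY1-type letters in 13.6% and 2.75%, and the TATA-type letters in 11.1% and 13.6%. The 3 motifs of factors known to control mitochondrial genes were thus more common in member windows, and TATA-type letters about as common as elsewhere. Member windows were also richer in G and C, with a median of 58.3% against 52.7% in all windows, and the part of base composition in these shares was not tested.

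The 8 assembly factors of complex I, which build the complex but are not part of it, had higher medians than the subunits in each comparison. Their medians were 0.65 in iHep over MF, 0.66 in PH over MF and 0.04 in iHep over PH, against -0.26, 0.41 and -0.78 for the 85 subunits. Ndufaf1, which builds the membrane arm, stood at 2.05 in iHep, 2.57 in PH and 1.03 in MF, 2.03-fold higher in iHep and 2.90-fold higher in PH than MF. Ndufaf6, another assembly factor, stood at 0.93 in iHep, 1.54 in PH and -0.31 in MF, 2.37-fold higher in iHep and 3.60-fold higher in PH than MF. Ndufaf4, which acts with Ndufaf3 on the ubiquinone-side module, was highest in iHep, at 1.07 in iHep, 0.40 in PH and -0.18 in MF, 2.38-fold higher in iHep than MF. Its partner Ndufaf3 was lowest in iHep, at -2.90 in iHep, -0.63 in PH and -1.67 in MF: it was 2.35-fold lower in iHep than MF, 2.06-fold higher in PH than MF and 4.84-fold lower in iHep than PH. Ndufaf5, an enzyme that modifies Ndufs7, stood at -3.25 in iHep, -3.94 in PH and -2.86 in MF, 2.12-fold lower in PH than MF. Ndufaf2, Ndufaf7 and Ndufaf8 lay within 2-fold in every comparison. Of the 5 members past 2-fold upward in iHep over MF 3 were assembly factors, and with subunits alone the count was 2.

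Complex II links the tricarboxylic acid cycle to the chain and has 4 subunits, all nuclear. Its medians were 0.04 in iHep over MF, 0.82 in PH over MF and -0.77 in iHep over PH. Sdha, the flavoprotein that oxidises succinate, stood at 3.09 in iHep, 3.68 in PH and 2.71 in MF, with differences of 0.38 in iHep over MF and 0.97 in PH over MF. Sdhb, the iron-sulfur subunit, stood at 4.59 in iHep, 5.54 in PH and 4.46 in MF and was 2.11-fold higher in PH than MF, while its other probe differed by 0.84. Sdhc, a membrane anchor at the ubiquinone site, stood at 4.15 in iHep, 5.29 in PH and 4.63 in MF and was 2.20-fold lower in iHep than PH, while its other probe differed by -0.18. Sdhd, the other anchor, was the most even of the 4, at 2.87 in iHep, 3.14 in PH and 2.93 in MF. All 4 were highest in PH, and none passed 2-fold in iHep over MF.

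Complex III passes electrons from ubiquinol to cytochrome c. The medians of its 8 members were -0.12 in iHep over MF, 0.47 in PH over MF and -0.63 in iHep over PH. Uqcrfs1, the Rieske iron-sulfur protein and the one member here that carries a redox centre, stood at 3.81 in iHep, 4.89 in PH and 3.21 in MF, 3.20-fold higher in PH than MF and 2.12-fold lower in iHep than PH. The core proteins Uqcrc1 and Uqcrc2, which line the matrix side, differed less. Uqcrc1 stood at 3.22 in iHep, 3.30 in PH and 2.53 in MF, and Uqcrc2 at 2.92, 3.36 and 2.81 on the same arrays. The small subunits were spread more widely. Uqcr11 stood at 2.78 in iHep, 4.46 in PH and 3.25 in MF, 2.32-fold higher in PH than MF and 3.21-fold lower in iHep than PH. Uqcrh, the acidic hinge protein that helps cytochrome c to dock, stood at 3.55 in iHep, 4.67 in PH and 4.57 in MF, 2.03-fold lower in iHep than MF and 2.17-fold lower than in PH. Its other probe differed by -0.89 in iHep over MF and -1.02 in iHep over PH. Uqcrb, at the ubiquinone site, was alike in PH and MF, at 3.09 in iHep, 3.60 in PH and 3.60 in MF. Uqcrb, Uqcrq and Uqcr10 lay within 2-fold throughout. By its brightest probe Uqcr10 was the only member of complex III above 0 in iHep over PH, at 0.06, while its other probes gave -0.57 and -0.28. Uqcrfs1 and the 2 core proteins were above 0 in iHep over MF, whereas 4 of the 5 small subunits were below it.

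Complex IV, cytochrome c oxidase, held the widest differences of all members. Its 11 common-form genes, which most tissues use, had medians of -0.41 in iHep over MF, 0.39 in PH over MF and -0.77 in iHep over PH, and all 11 were below 0 in iHep over PH. Cox4i1, the common form of the largest nuclear-encoded subunit, was lowest in iHep and highest in MF, at 2.39 in iHep, 3.05 in PH and 3.83 in MF, 2.72-fold lower in iHep than MF. Cox6a1, the common form that liver uses, stood at 4.68 in iHep, 5.91 in PH and 5.76 in MF, 2.12-fold lower in iHep than MF and 2.36-fold lower than in PH. Cox5b, a zinc-binding matrix subunit, stood at 4.18 in iHep, 5.39 in PH and 4.54 in MF, 2.33-fold lower in iHep than PH. Cox5a, a subunit on the matrix side, stood at 3.84 in iHep, 4.60 in PH and 4.06 in MF and lay within 2-fold throughout. Ndufa4, once counted with complex I and now placed in complex IV, stood at 3.82 in iHep, 5.37 in PH and 4.21 in MF, 2.22-fold higher in PH than MF and 2.92-fold lower in iHep than PH. Cox7b was the common form nearest to 0 on the upper side in iHep over MF, at 0.09, with levels of 3.89 in iHep, 4.37 in PH and 3.79 in MF. Cox7a2l, which joins complexes III and IV into a supercomplex, stood at 4.42 in iHep, 4.60 in PH and 5.42 in MF, 2.01-fold lower in iHep than MF. Its other probes lay within 2-fold there, at -0.12 and -0.74. Cox6b1, Cox6c, Cox7a2, Cox7b and Cox8a lay within 2-fold in every comparison.

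Cox7c, a small common-form subunit, was the one member whose probes passed 2-fold in opposite directions. Its brightest probe stood at 3.38 in iHep, 4.93 in PH and 4.87 in MF and differed by -1.49 in iHep over MF. The second differed by -0.15 and the third by 1.79, with levels of -0.01 in iHep, 1.13 in PH and -1.80 in MF for the third. The direction for Cox7c in iHep over MF therefore depended on the probe, whereas all 3 probes were below 0 in iHep over PH, between -1.55 and -0.20.

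The 8 genes of tissue or condition forms behaved one by one. Cox4i2, the form of subunit IV known from lung and from cells at low oxygen, stood at -0.19 in iHep, 2.16 in PH and -1.78 in MF by its 1 probe (A_55_P2054663). It was 3.01-fold higher in iHep than MF, 15.3-fold higher in PH than MF and 5.10-fold lower in iHep than PH. Its common counterpart Cox4i1 ran the other way against MF on both arrays. Ndufa4l2, the paralogue of Ndufa4 that low oxygen induces, was low in PH: it stood at 2.28 in iHep, -2.12 in PH and 1.67 in MF by its 1 probe (A_55_P1971244), 13.8-fold lower in PH than MF and 21.1-fold higher in iHep than PH. These 2 genes, both known as targets of the hypoxia response, thus stood in opposite orders on the PH and MF arrays. Cox6a2, the heart and skeletal muscle form, was highest in iHep, at -0.82 in iHep, -2.74 in PH and -2.28 in MF, 2.75-fold higher in iHep than MF and 3.79-fold higher than in PH. Cox7a1, another heart and muscle form, was highest in MF, at -1.73 in iHep, -2.19 in PH and -0.70 in MF, 2.04-fold lower in iHep and 2.80-fold lower in PH than MF. Cox6b2, known from testis, stood at -1.11 in iHep, 0.34 in PH and -1.71 in MF, 4.14-fold higher in PH than MF and 2.73-fold lower in iHep than PH. Cox8b, the heart, muscle and brown fat form in mice, was well above background in PH alone, at -3.99, so that PH over MF was at least 4.98-fold higher and iHep over PH at least 10.1-fold lower. On the log2 scale these bounds are 2.32 and -3.34; under normexp, a background correction that models signal and background together, they were 0.00 and -2.03 and with quantile normalization 1.29 and -2.32, so that the bound for PH over MF was lost under normexp. Cox7b2 and Cox8c, known from testis, were not well above background on any array. The 6 muscle markers summed to a log2 level of -3.02 in iHep, -2.12 in PH and -2.44 in MF, with cardiac actin (Actc1) not well above background on any array.

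The difference of a restricted form minus that of its common counterpart on the same pair of arrays does not depend on a factor that scales a whole array. Cox4i2 gained on Cox4i1 by 3.03 in iHep over MF (8.19-fold) and by 4.72 in PH over MF (26.4-fold), and over 5 ways of processing, the main one included, these gains lay between 2.76 and 3.03 and between 4.47 and 4.73. Cox6a2 gained on Cox6a1 by 2.54 in iHep over MF and 3.16 in iHep over PH, with ranges of 1.58 to 2.54 and 2.66 to 3.16, while PH over MF gave -0.62. Ndufa4l2 gained on Ndufa4 by 1.01 in iHep over MF, differed by -4.94 in PH over MF (30.6-fold) and gained 5.95 in iHep over PH (61.8-fold). Over the same ways of processing these values ranged from 0.62 to 1.01, from -5.02 to -4.82 and from 5.63 to 5.95, so that the gain in iHep over MF did not always reach 2-fold. Cox6b2 gained on Cox6b1 by 1.16 in iHep over MF and 2.01 in PH over MF, with ranges of 0.72 to 1.20 and 1.60 to 2.01. Cox7a1 against Cox7a2 gave -0.55 in iHep over MF, -1.55 in PH over MF and 0.99 in iHep over PH. The bounds for Cox8b against Cox8a depended on the processing: in PH over MF the bound was 1.86 with the 75th percentile, 0.95 with quantile normalization and -0.59 under normexp, so that no direction is given, and in iHep over PH it was -2.74, or -1.49 under normexp. The pairs of Cox4i2 and Cox6a2 in iHep over MF, and of Cox4i2 and Ndufa4l2 in PH over MF, kept their direction and stayed past 2-fold under normexp and quantile normalization. Of the 5 ways only these could change the pairs, because each gene has 1 probe and another scaling of a whole array leaves a pair unchanged.

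**Figure D2:**
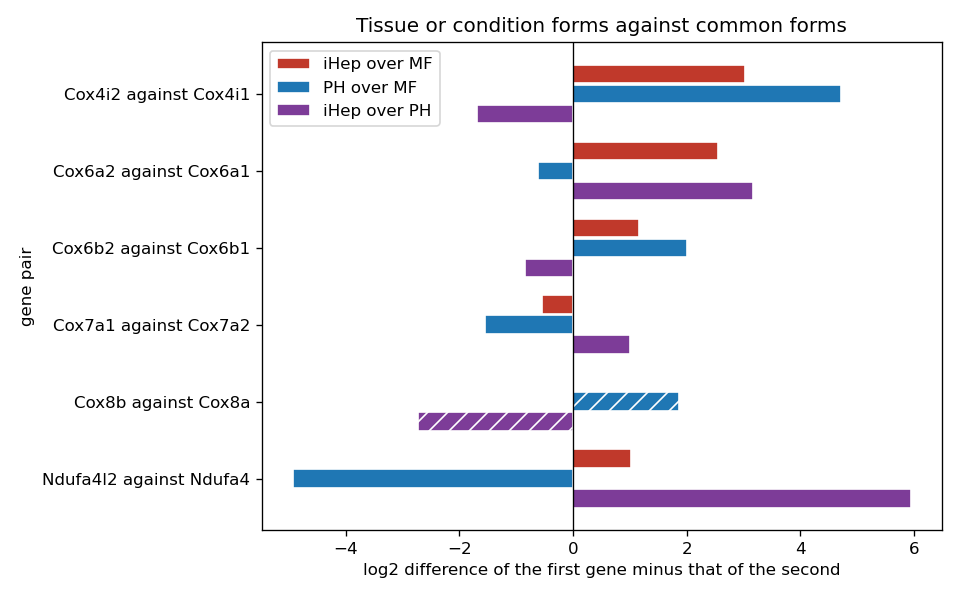
Bars give the log2 difference of a tissue or condition form minus that of its common form in each comparison; hatched bars for Cox8b are bounds with the 75th percentile scaling, and there is no bar where neither array was above background. Cox4i2 gained on Cox4i1 by 3.03 in iHep over MF and 4.72 in PH over MF, whereas Ndufa4l2 against Ndufa4 reached -4.94 in PH over MF and 5.95 in iHep over PH.

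The promoters of 2 of these pairs are shown to set a muscle form beside its common form. They are RefSeq windows of build GRCm38.p6, at chr7:140900397-140900696 (minus strand) for Cox8b, chr19:7217567-7217866 (minus) for Cox8a, chr7:30183921-30184220 (plus) for Cox7a1 and chr9:79759804-79760103 (minus) for Cox7a2. Each is written along the strand of its gene, and capitals mark a TATA-type match in Cox8b (TATAAA) and the ETS-type letters on the other strand (CTTCCGG) in Cox8a.
Cox8b: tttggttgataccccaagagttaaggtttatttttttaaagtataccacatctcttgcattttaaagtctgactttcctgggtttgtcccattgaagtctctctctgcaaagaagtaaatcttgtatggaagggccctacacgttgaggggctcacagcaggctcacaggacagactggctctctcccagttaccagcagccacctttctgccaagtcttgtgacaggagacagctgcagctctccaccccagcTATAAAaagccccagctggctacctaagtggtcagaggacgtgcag
Cox8a: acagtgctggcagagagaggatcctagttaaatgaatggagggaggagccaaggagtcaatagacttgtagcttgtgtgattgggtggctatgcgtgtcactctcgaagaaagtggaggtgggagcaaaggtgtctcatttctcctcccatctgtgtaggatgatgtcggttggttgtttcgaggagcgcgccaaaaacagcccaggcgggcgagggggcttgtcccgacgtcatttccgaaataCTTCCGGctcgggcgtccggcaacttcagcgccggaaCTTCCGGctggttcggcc
Cox7a1: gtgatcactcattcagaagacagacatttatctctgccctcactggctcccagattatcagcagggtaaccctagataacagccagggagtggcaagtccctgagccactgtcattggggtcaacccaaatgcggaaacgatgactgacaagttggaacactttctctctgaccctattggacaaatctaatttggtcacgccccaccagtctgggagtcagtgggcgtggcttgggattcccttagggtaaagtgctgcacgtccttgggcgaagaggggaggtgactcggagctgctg
Cox7a2: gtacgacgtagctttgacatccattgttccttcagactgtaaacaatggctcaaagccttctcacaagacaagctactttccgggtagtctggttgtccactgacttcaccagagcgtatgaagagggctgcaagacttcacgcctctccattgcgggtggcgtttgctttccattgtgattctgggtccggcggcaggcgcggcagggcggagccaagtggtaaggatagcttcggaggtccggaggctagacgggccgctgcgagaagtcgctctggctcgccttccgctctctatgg
The Cox8b window held 1 TATA-type match and none of the other 3 motifs, and the Cox8a window held 2 ETS-type matches. The match in Cox8b began 4 bases after the RefSeq start, so its letters are not read as a TATA box. Neither the Cox7a1 nor the Cox7a2 window held any of the 4. G and C made up 48.3% of the Cox8b window and 56% of the Cox8a window, against 53% for Cox7a1 and 56.7% for Cox7a2.

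Complex V, the ATP synthase, had the lowest median of any complex in iHep over PH with the 75th percentile. With quantile normalization complexes I and IV were marginally lower, and in the authors' processed values complex I was, at -0.23 against -0.19 for complex V. The medians of its 17 members were -0.40 in iHep over MF, 0.55 in PH over MF and -0.95 in iHep over PH. Atp5a1, the alpha subunit of the catalytic head, stood at 4.08 in iHep, 5.49 in PH and 4.50 in MF, 2.65-fold lower in iHep than PH. Atp5b, the beta subunit that holds the catalytic sites, stood at 5.16 in iHep, 6.13 in PH and 5.51 in MF, just within 2-fold in iHep over PH (1.95-fold lower). Atp5c1, the rotating gamma subunit, stood at 2.94 in iHep, 3.94 in PH and 2.91 in MF, 2.04-fold higher in PH than MF, while its other probe differed by 0.50. Atp5d, the delta subunit of the same rotor, was level, at 2.48 in iHep, 2.45 in PH and 2.47 in MF, and Atp5e, the epsilon subunit, stood at 3.35, 4.30 and 4.07. The head and rotor were thus lower in iHep than PH for every subunit but Atp5d.

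The ring of c subunits is made by 3 genes that encode the same mature protein. Atp5g1 stood at 4.39 in iHep, 5.16 in PH and 3.97 in MF, 2.28-fold higher in PH than MF. Atp5g3 stood at 4.23 in iHep, 5.25 in PH and 5.14 in MF, 2.04-fold lower in iHep than PH. Atp5g2 read 4.35 in iHep, 4.25 in PH and 4.40 in MF by its brighter probe, but its other probe differed by 1.56 in PH over MF, so that its place depended on the probe. Atp5g1 gained on Atp5g3 by 1.33 in iHep over MF and 1.07 in PH over MF. Over 5 ways of processing, of which only normexp and quantile normalization could change this pair, these gains lay between 1.22 and 1.44 and between 0.91 and 1.10.

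Among the 9 stalk and membrane subunits, all were below 0 in iHep over PH by their brightest probes, with a median of -0.95. Atp5mpl, a small membrane proteolipid, stood at 2.25 in iHep, 3.87 in PH and 2.98 in MF, 3.06-fold lower in iHep than PH. Atp5j, coupling factor F6, stood at 3.89 in iHep, 5.26 in PH and 4.42 in MF, 2.59-fold lower in iHep than PH. Atp5k, the e subunit that helps the enzyme to dimerise, stood at 4.42 in iHep, 5.71 in PH and 4.38 in MF, 2.50-fold higher in PH than MF and 2.45-fold lower in iHep than PH, but its second probe differed by -0.36 in PH over MF. Atp5l, the g subunit that pairs with it, stood at 4.21 in iHep, 5.21 in PH and 5.22 in MF, 2.02-fold lower in iHep than MF; its 5 probes lay between -1.08 and -0.33. Atp5o, which connects head and stalk, had the smallest difference of the 9 in iHep over PH, at -0.56, with levels of 3.10 in iHep, 3.66 in PH and 3.19 in MF. Atp5h, Atp5j2, Atp5md and Atp5pb also lay within 2-fold throughout. The second, dimmer probe of Atp5j2 gave 0.62 in iHep over PH, against -0.86 by the brightest, and -0.73 in PH over MF, against 0.33.

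**Figure D3:**
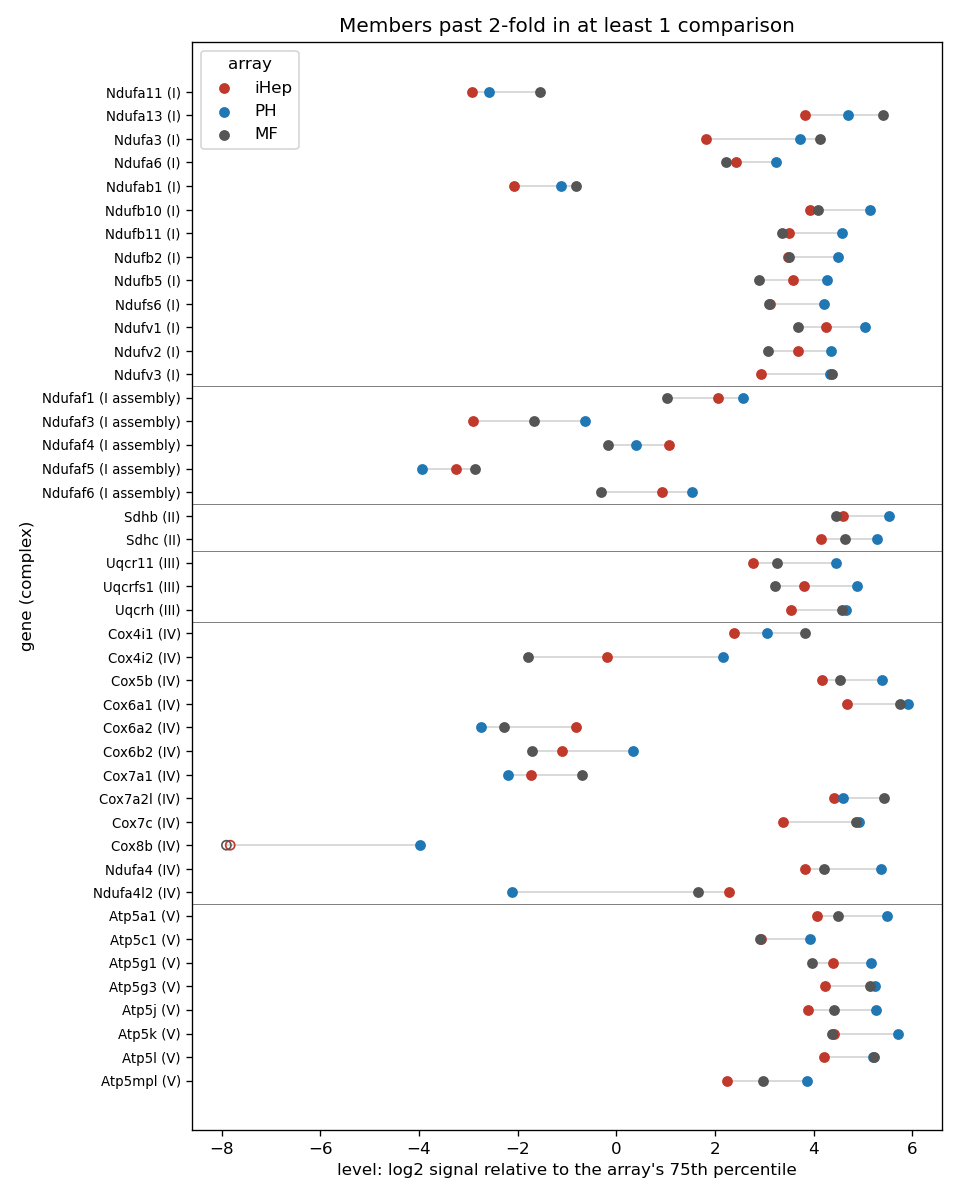
Level on each array (log2 signal relative to the array's 75th percentile) of the 43 members past 2-fold in at least 1 comparison, grouped by complex; dots are iHep, PH and MF, and open circles are readings not well above background. PH is the rightmost dot for most genes of complexes I, II, III and V, while Cox4i2, Ndufa4l2 and Cox8b span the widest ranges.

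Small differences depended on the scaling of the arrays. With quantile normalization the median of all members in iHep over MF was 0.06, and in the authors' processed values, which hold 67 of the members compared, it was also 0.06, against -0.24 with the 75th percentile. These 2 settings moved the median of all genes by 0.11 and 0.10, so that relative to all genes the members lay at -0.03 and -0.02, against -0.22 with the 75th percentile and 0.21 under normexp background correction. The direction of the members in iHep over MF is therefore not settled by these arrays. For PH over MF the median relative to all genes lay between 0.61 and 1.01 under all 6 ways of processing, and in iHep over PH between -0.62 and -0.50. By complex, PH over MF gave medians relative to all genes of 0.57 to 0.90 for complex I, 0.82 to 1.36 for II, 0.65 to 1.02 for III, 0.37 to 0.61 for IV and 0.73 to 1.10 for V. For iHep over PH they were -0.61 to -0.51, -0.62 to -0.44, -0.49 to -0.39, -0.56 to -0.41 and -0.80 to -0.55 in the same order. For iHep over MF the range held 0 for each of the 5 complexes, as with -0.19 to 0.23 for complex I and -0.38 to 0.02 for complex V, whereas the assembly factors lay at 0.56 or above. Among single members past 2-fold, all 5 higher in iHep than MF (Cox4i2, Cox6a2, Ndufaf1, Ndufaf4 and Ndufaf6) and 5 of the 13 lower ones (Cox4i1, Ndufa11, Ndufa3, Ndufab1 and Ndufv3) were past it in every alternative that held a value for them. For PH over MF 8 of 20 higher members did so (Cox4i2, Cox6b2, Ndufaf1, Ndufaf6, Ndufb5, Ndufv1, Ndufv2 and Uqcrfs1) and 2 of 4 lower ones (Cox7a1 and Ndufa4l2). For iHep over PH both higher members did so (Cox6a2 and Ndufa4l2) and 7 of 23 lower ones (Atp5mpl, Cox4i2, Cox6b2, Cox8b, Ndufa3, Ndufaf3 and Uqcr11).

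**Figure D4:**
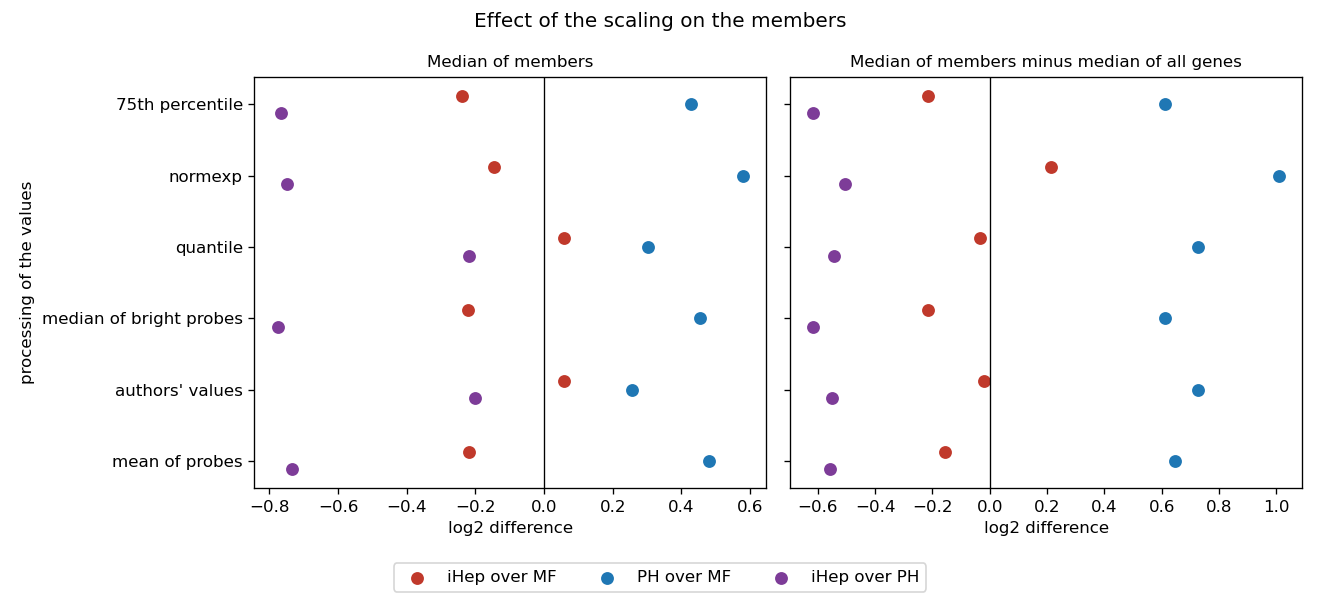
Median log2 difference of the members (left) and the same minus the median of all genes (right) under 6 ways of processing the values. PH over MF stays above 0 and iHep over PH below 0 in both panels, whereas iHep over MF lies on both sides of 0 in each.

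Probes of the same gene set a further limit on small differences. For the 22 members with more than 1 measured probe in iHep over MF, the probes of a gene differed by a median of 0.46 in log2 difference, and by over 2-fold for 1 gene. For PH over MF the median was 0.57 and 6 genes had probes over 2-fold apart, and in iHep over PH it was 0.36 with 3 of 23. The disagreement between probes was thus larger than the technical SD from replicate spots.

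Lists of other nuclear genes that build or feed the chain had other medians than the subunits. Their counts stand against 19.8% of all genes higher and 23.5% lower in iHep over MF, and 30.9% higher and 25.4% lower in PH over MF. Mitochondrial DNA maintenance and transcription had 6 of 12 genes at least 2-fold higher and none lower in iHep over MF, with a median of 0.98, and 3 higher (25%, below the share of all genes) and none lower in PH over MF, with a median of 0.43. Mgme1, a nuclease of mitochondrial DNA upkeep, stood at 2.70 in iHep, 1.65 in PH and -0.10 in MF, and Tfam, which packages and transcribes mitochondrial DNA, at 0.15 in iHep, -0.03 in PH and -0.63 in MF. The mitochondrial ribosome had 16 of 77 genes higher (20.8%, near the share of all genes) and 1 lower in iHep over MF, with a median of 0.23, and 7 higher and 7 lower in PH over MF, with a median of 0.12. Complex IV assembly and copper delivery had 7 of 19 higher and 2 lower in iHep over MF (median 0.47) and 6 higher and 2 lower in PH over MF (0.46). Cox17, the chaperone that brings copper to complex IV, stood at 1.80 in iHep, 2.13 in PH and -0.39 in MF, 4.58-fold higher in iHep and 5.73-fold higher in PH than MF. Assembly factors of complexes II, III and V had 2 of 10 higher and 3 lower in iHep over MF (0.11) and 1 higher and 1 lower in PH over MF (-0.37). Bcs1l, which inserts the Rieske protein Uqcrfs1 into complex III, stood at 1.31 in iHep, 3.03 in PH and -0.28 in MF, the order that Uqcrfs1 itself had.

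Carriers and feeder pathways were mixed. Other electron carriers had 2 of 10 higher and 2 lower in iHep over MF (median 0.04), 4 of 9 higher and none lower in PH over MF (0.80), and 1 of 10 higher and 5 lower in iHep over PH (-0.89), against 23.2% and 36% of all genes. These counts include Aox1, a cytosolic aldehyde oxidase that is not part of the chain. Its differences were -2.61 in iHep over MF, 2.14 in PH over MF and -4.75 in iHep over PH. Etfdh, which passes electrons from fatty acid oxidation to ubiquinone, stood at 1.76 in iHep, 4.54 in PH and 2.06 in MF, while cytochrome c (Cycs) was level, at 4.50, 4.48 and 4.47. Coenzyme Q synthesis had 4 of 12 higher and none lower in iHep over MF (0.52) and 3 higher and none lower in PH over MF (0.14). Coq8a, an atypical kinase of that pathway, stood at -5.44 in iHep, 1.61 in PH and -4.82 in MF, 86.4-fold higher in PH than MF. The tricarboxylic acid cycle had none of 17 past 2-fold in iHep over MF (0.29) and 5 higher and 1 lower in PH over MF (0.19). Citrate synthase (Cs), often used as a measure of mitochondrial content, was the lowest of that list in PH over MF, at 4.21 in iHep, 2.34 in PH and 4.37 in MF, so that PH was the lowest of the 3 arrays. Uncoupling, carrier and outer membrane genes had 1 of 17 higher and 4 lower in iHep over MF (-0.15) and 5 higher and 3 lower in PH over MF (-0.02). The hypoxia-linked list, which shares Cox4i2 and Ndufa4l2 with the members, had 2 of 14 higher and 1 lower in iHep over MF (-0.02) and 4 higher and 5 lower in PH over MF (0.18).

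**Figure D5:**
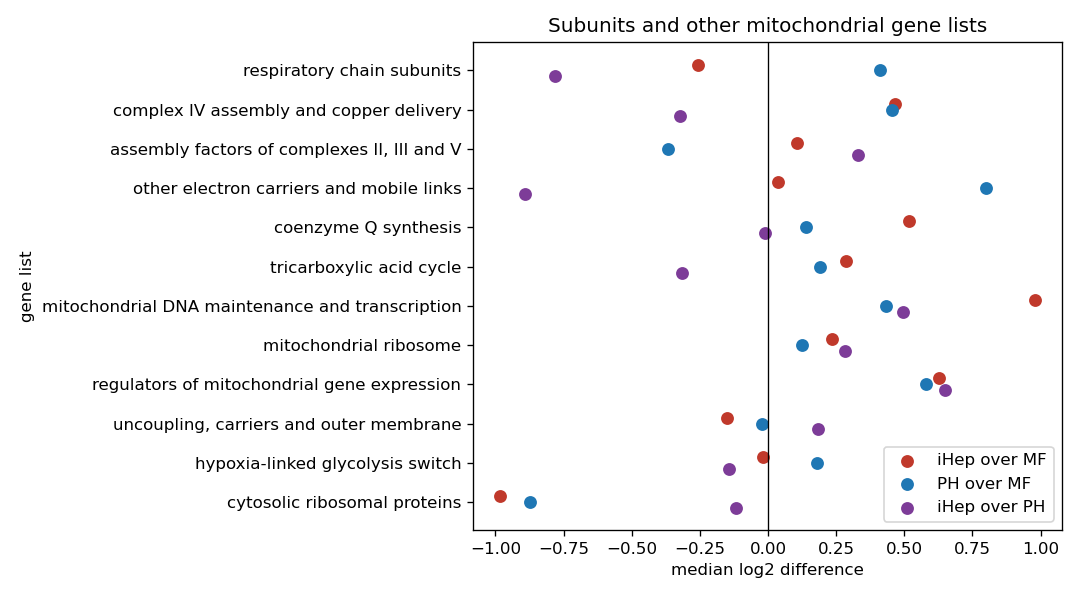
Median log2 difference of the 85 subunits and of 11 other gene lists in the 3 comparisons (dots). The subunits lie at -0.26 in iHep over MF, 0.41 in PH over MF and -0.78 in iHep over PH, whereas mitochondrial DNA maintenance and transcription lies at 0.98, 0.43 and 0.50.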

How the data were processed

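RNA pools of iHep, PH and MF cells (5 samples each, per the design text) were measured on 1 one-colour (Cy3) expression array per group, grouped by sample title. Spot intensity values are in the deposited scanner files. Per the file headers they come from Agilent Feature Extraction 11.0.1.1 (the submitters' processing notes name 9.1), with background subtracted within each array, and the design was annotated on mm9. The authors' deposited value table holds log2 values with scale and centring unstated. Its column medians were 7.02 for iHep, 7.08 for PH and 7.03 for MF, all 3 columns reach 17.4 at most, and they correlated with the scanner values across probes at 0.998, 0.994 and 0.997, so its direction is that of the signal, while its normalization stays unknown.

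Control spots and outlier spots were left out (230 for iHep, 383 for PH and 190 for MF, of 43020), and none was saturated. Values were log2 processed intensity minus the 75th percentile of the array, with replicate spots averaged. Probes were named through unversioned accessions in the RefSeq table of GRCm38.p6: 27234 had 1 symbol, 0 several and 12195 none. No gene coordinates are given from mm9, and promoter windows carry the coordinates of their own table. The brightest probe stood for a gene, and 24 members had more than 1. Members were counted at a fixed 2-fold threshold. Where 1 side was not well above background, the fold is "at least" that of the bright side over the dim reading or, if that is higher, the array's lowest level well above background, -7.32 for iHep, -6.89 for PH and -6.30 for MF. Differences and calls were computed in Python 3.11.15, and these steps were tested on simulated data.

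The number of arrays, 1 per group, limits the precision, and no test was made. Alternatives included background correction by normexp on median signals with an offset of 50, in limma 3.58.1 under R 4.3.3. Quantile normalization was computed in Python on probes present on all arrays. Other alternatives were scaling to the median of probes well above background on all arrays, the authors' values and the mean of a gene's probes. Further ones were other filters on dim probes, subunits alone, and thresholds of 1.5-fold and 4-fold. Members named are those past 2-fold, the highest and lowest of each complex, core subunits, isoform sets and genes whose probes disagree. Genes of other lists are the highest and lowest of a list and its defining genes. Members, lists and rules were chosen with earlier results of these data known. Ndufb4, Ndufb8, Ndufaf2, Ndufaf7, Ndufaf8, Uqcrq, Cox6c, Atp5d, Atp5e, Atp5h, Atp5j2, Atp5md, Atp5o and Atp5pb lie outside the rule and were named after their values were seen. Of the members that the rule names, 1 is not reported here.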

Additional observations from a re-analysis of the deposited data

How the results depend on the processing

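With 1 array per group, a change of setting is set against the main value with no error. No paired analysis was possible because each group has 1 array and the labels give no replicate numbers. Among the members' counts and medians under the alternatives, 58 values moved little and 26 moved. Under quantile normalization iHep over MF had 8 members higher and 6 lower with a median of 0.06. PH over MF had 11 higher, and iHep over PH had 8 lower and a median at -0.22. Of all genes 3592 of 17176 were then higher and 3607 lower in iHep over MF. In PH over MF 4196 of 17787 were higher, and in iHep over PH 4603 of 18005 were lower. In the authors' values iHep over MF had 5 lower and a median of 0.06, PH over MF 8 higher and 0.26, and iHep over PH 4 higher, 6 lower and -0.20. Of all genes 2620 of 12440 were lower there in iHep over MF and 2984 of 12914 higher in PH over MF. In iHep over PH 4042 of 13070 were higher and 3216 lower. With subunits alone iHep over MF had 2 higher. At 1.5-fold the counts were 12 higher and 21 lower in iHep over MF, 38 and 9 in PH over MF, and 4 and 59 in iHep over PH. At 4-fold they were 0 and 1, 3 and 1, and 1 and 3. The shares of all genes at 1.5-fold and 4-fold are not given here, so these counts cannot be set against them. In the authors' values Atp5k turned to -0.51 in PH over MF and 0.05 in iHep over PH, and with the mean of its probes Cox7c turned to 0.05 in iHep over MF. For the other values of complexes and single members, 483 kept direction and side of the threshold, 74 no longer passed 2-fold, 31 medians moved and 3 turned. Normexp, quantile normalization and the authors' values moved the median of all genes by -0.34, 0.11 and 0.10 in iHep over MF, by -0.25, -0.24 and -0.29 in PH over MF and by -0.09, 0.48 and 0.50 in iHep over PH. The share of higher genes among all those past 2-fold was then 27.4%, 49.9% and 49.8% in iHep over MF (45.7% in the main setting), 38.7%, 43.2% and 42.1% in PH over MF (54.9%) and 36.9%, 54.9% and 55.7% in iHep over PH (39.2%). The authors' values also cover fewer probes, and which choice moved each value was not tested. The MF array was the dimmest, and Cox8b, Cox7b2 and Cox8c have no measured level there.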

Other observations

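The regulators of mitochondrial genes had 5 of 14 genes at least 2-fold higher and none lower in iHep over MF, for a median of 0.63 (0.53 if dim readings are held at bounds), 6 higher and 1 lower in PH over MF (0.58), and 5 higher and 3 lower in iHep over PH (0.65). Of all genes 19.8% were higher and 23.5% lower in iHep over MF, 30.9% and 25.4% in PH over MF, and 23.2% and 36% in iHep over PH. Ppargc1a, the coactivator of mitochondrial biogenesis known as PGC-1 alpha, stood at 0.80 in iHep, -1.06 in PH and -4.63 in MF, 43.2-fold higher in iHep than MF, while the subunit median for the same pair of arrays was -0.26. Nrf1, which binds the promoters of many subunit genes, stood at 1.93 in iHep, 0.87 in PH and -0.46 in MF, 5.25-fold higher in iHep than MF. Gabpa, the ETS factor of the same promoters, stood at 1.42 in iHep, 1.67 in PH and 0.84 in MF, and Esrra, a nuclear receptor partner of Ppargc1a, at 3.41, 2.62 and 3.20. Ppara, the fatty acid receptor of liver, was high in PH alone, at -3.36 in iHep, 2.88 in PH and -3.79 in MF. Myc, a transcription factor that also acts on ribosomal and mitochondrial genes, stood at 3.50 in iHep, -0.47 in PH and 1.15 in MF.

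Cytosolic ribosomal protein genes had 1 of 82 higher and 38 lower in iHep over MF, with a median of -0.98, and 1 of 81 higher and 35 lower in PH over MF (-0.87), against 7 of 82 higher and 6 lower in iHep over PH (-0.12). They were thus low on both arrays of scan 1 relative to MF, and the part of the scan and of the scaling in this was not tested. Within the hypoxia-linked list Egln3, a prolyl hydroxylase that low oxygen induces, stood at 2.01 in iHep, -0.62 in PH and -2.29 in MF, while Ldha, which makes lactate, stood at 4.93 in iHep, 6.06 in PH and 6.98 in MF. Egln3 thus had the order of iHep, PH and MF, Cox4i2 that of PH, iHep and MF, and Ndufa4l2 that of iHep, MF and PH, so the hypoxia-linked genes did not share 1 order.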
